A study of Mus musculus with 12 samples.

Results

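The TKO peaks over weak SssI peaks are places where the zinc finger protein ZBTB43 captured unmethylated DNA while the same places gave only a low-scoring peak on fully CpG-methylated DNA. They were selected on the measured scores. A peak called on DNA of Dnmt triple knockout (TKO) cells was a member if it lay on an autosome, overlapped at least 1 peak called on M.SssI-methylated (SssI) DNA by at least 1 bp, and had a highest overlapped SssI score below 302. The rule gave 628 members among the 14694 TKO peaks deposited. The 13843 autosomal TKO peaks whose highest SssI score was 302 or more are the comparison peaks, and 83 autosomal TKO peaks overlapped no SssI peak. Of the 14471 autosomal TKO peaks over an SssI peak, 4.34% were members, a share that the rule fixes and that carries no finding.

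In the experiment, recombinant His-MBP-ZBTB43 from E. coli, held on magnetic beads, was incubated with sheared genomic DNA of the mouse, and what the beads retained was sequenced. The TKO DNA came from a male triple knockout embryonic stem cell line of 3.5 dpc origin, clone19, whose genotype is Dnmt1-/- Dnmt3a-/- Dnmt3b-/- and which lacks the enzymes that methylate CpGs. The SssI DNA came from the lung of wild type C57BL/6N adult males aged 2 months and was methylated at CpGs with the bacterial enzyme M.SssI after fragmentation. Each DNA was captured in 2 libraries with MBP-ZBTB43 and 2 with MBP alone as the background control. The TKO line is 1 clone, and the DNAs differed both in cell type and in methylation, whose parts cannot be told apart. The labels name no background strain for the TKO line. Only the 2 peak lists were used here. They were called after the duplicates had been combined and give no coverage, so a peak's spread between replicates and its depth are not given, and no test between the DNAs was made. The signal of single libraries was not analysed here. Intervals given with shares and medians are 95% intervals (Wilson for a share, Newcombe for a difference of shares, order statistics for a median) and cover counting error over peaks only. The sequence of a peak was not used by the rule.

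ZBTB43 is a BTB domain and zinc finger protein that binds alternating purine-pyrimidine sequences. Such tracts, of which (CA)n is the commonest in mammalian genomes and (CG)n the rarest, can leave the right-handed double helix for the left-handed Z-DNA form, in which successive bases alternate between the syn and anti positions. CpG methylation favours the Z form of CG steps, whereas a (CA)n tract holds no CpG that M.SssI could methylate.

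To show what the members look like, 200 bases around the midpoint of selected members are printed here from mm10 (GRCm38), plus strand, 5′ to 3′. Capitals mark alternating purine-pyrimidine tracts of at least 12 bases that hold a C or a G. The first set holds members with high TKO scores that carried a tract, in introns of Slc15a1, a peptide transporter, and Rims2, a protein of the presynaptic release site, and in intron 19 of Acap3, a GTPase-activating protein for Arf proteins, within 3000 bp upstream of an annotated start.

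Slc15a1 (chr14:121467636-121467835): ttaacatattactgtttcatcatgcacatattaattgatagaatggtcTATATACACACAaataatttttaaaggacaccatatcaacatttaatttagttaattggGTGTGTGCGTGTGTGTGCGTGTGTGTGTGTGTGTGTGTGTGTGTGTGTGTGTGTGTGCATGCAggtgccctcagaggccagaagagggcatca
Rims2 (chr15:39558669-39558868): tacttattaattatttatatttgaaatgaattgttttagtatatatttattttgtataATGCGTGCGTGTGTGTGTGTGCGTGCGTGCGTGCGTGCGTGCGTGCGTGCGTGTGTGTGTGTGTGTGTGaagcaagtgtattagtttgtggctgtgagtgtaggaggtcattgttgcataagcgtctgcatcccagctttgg
Acap3 (chr4:155904341-155904540): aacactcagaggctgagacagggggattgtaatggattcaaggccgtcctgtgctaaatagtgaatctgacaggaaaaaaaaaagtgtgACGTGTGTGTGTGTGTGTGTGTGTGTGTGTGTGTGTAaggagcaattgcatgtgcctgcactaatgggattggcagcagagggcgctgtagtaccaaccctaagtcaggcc

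Each of these windows had 1 long uninterrupted tract. At Slc15a1 it began just past the midpoint, and a further short tract lay on the other side. The windows of Rims2 and Acap3 held no other tract. The next set holds members with no tract of 12 bases within the 200 bases, or with only the edge of one. The first lay over exon 10 of Rpap3, which encodes a factor of RNA polymerase assembly, and the next in intron 1 of Gpr39, a zinc-sensing receptor. The last lay over a coding exon of Zbtb43 itself, which only some of its annotated transcripts hold.

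Rpap3 (chr15:97686346-97686545): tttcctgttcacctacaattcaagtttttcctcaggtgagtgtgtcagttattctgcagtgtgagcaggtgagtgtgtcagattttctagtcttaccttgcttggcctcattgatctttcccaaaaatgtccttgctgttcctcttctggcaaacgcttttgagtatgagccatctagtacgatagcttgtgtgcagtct
Gpr39 (chr1:125866836-125867035): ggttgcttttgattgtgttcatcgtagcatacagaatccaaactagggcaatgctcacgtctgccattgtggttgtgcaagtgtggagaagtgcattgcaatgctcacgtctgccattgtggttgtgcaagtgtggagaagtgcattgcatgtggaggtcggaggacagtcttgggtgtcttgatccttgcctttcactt
Zbtb43 (chr2:33462210-33462409): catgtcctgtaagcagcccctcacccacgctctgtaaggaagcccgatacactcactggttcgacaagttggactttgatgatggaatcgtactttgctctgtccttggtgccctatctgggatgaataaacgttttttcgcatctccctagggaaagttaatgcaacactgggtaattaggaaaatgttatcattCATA

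The member in intron 1 of Sik3, a salt-inducible kinase, is shown because it had a TKO score of 700 over an SssI score of 24, and its tracts were short and repeated rather than long.

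Sik3 (chr9:46077765-46077964): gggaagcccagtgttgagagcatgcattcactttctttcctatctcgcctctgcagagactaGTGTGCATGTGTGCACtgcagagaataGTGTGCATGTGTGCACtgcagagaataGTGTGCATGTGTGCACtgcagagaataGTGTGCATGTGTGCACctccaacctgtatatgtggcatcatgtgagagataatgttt

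For contrast, the comparison peak with the highest TKO score, 4234, lay in Eml1, which encodes a microtubule-associated protein, and its window was filled with tracts.

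Eml1 (chr12:108404632-108404831): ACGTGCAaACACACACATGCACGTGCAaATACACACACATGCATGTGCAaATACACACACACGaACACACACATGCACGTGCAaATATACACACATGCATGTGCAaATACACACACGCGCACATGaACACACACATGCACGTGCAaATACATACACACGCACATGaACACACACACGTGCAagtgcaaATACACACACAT

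Of these 200 bases, 184 were in tracts at Eml1, against 75 at Slc15a1, 69 at Rims2, 37 at Acap3 and 64 at Sik3. The comparison peak was chosen for its score alone, and not every strong peak was of this kind: those in Ptpro, Prmt3 and 1700045H11Rik, next in TKO score, had 0 bases in tracts of this length.

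The score of a peak rises with the −log10 of its q-value and was compared only within its own list. The members' TKO scores ran from 13 to 1843 with a median of 71.5, against 206 for the comparison peaks, and their SssI scores ran from 14 to 301 with a median of 190, against 1216. The rule used the SssI score, so these values describe the members and support nothing. In the TKO list, 540 members (86.0%, 83.0 to 88.5%) fell among the lower-scoring 50% and 23 (3.66%) among the strongest 25%. The members' SssI partners began at the strongest 20.1% of the SssI list and reached 99.96%, the very end of it. Counted from the strongest, the median rank of these partners was 29.7% of the SssI list. That of the members in the TKO list was 80.9%. The median score of the whole SssI list was 108, so most partners were not at its low end. The spread of SssI scores was uneven, since 289 members had one of 200 or more, 129 one under 100 and 32 one under 50.

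**Figure D1:**
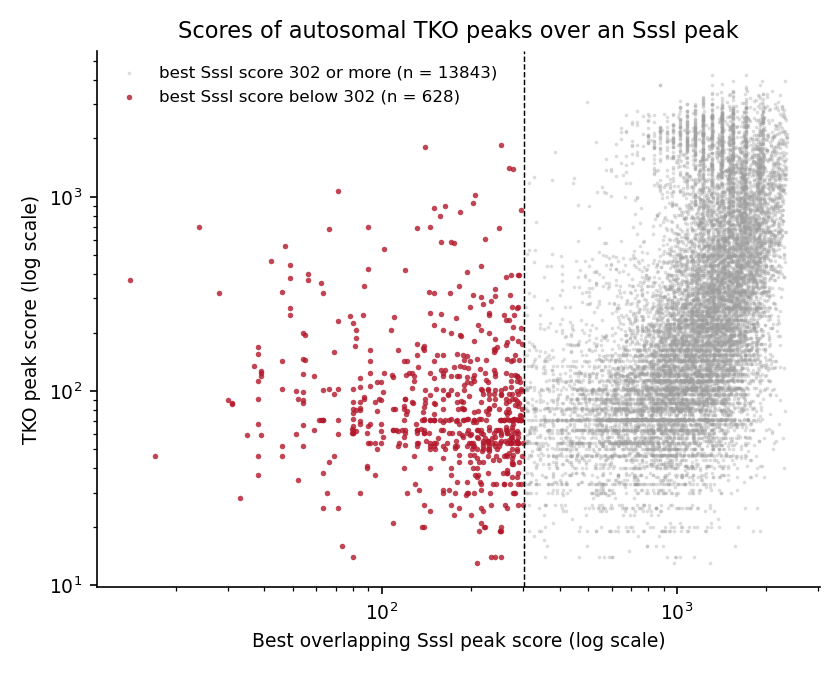
TKO peak score against the best overlapping SssI peak score for 14471 autosomal TKO peaks, both on log scales, with 1 point for each peak and the threshold of 302 as a dashed line. The 628 members (red) are mostly low in TKO score, but a few reach scores above 1000.

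Members and comparison peaks met at the threshold without a gap. The 20 members just inside it had SssI scores of 291 to 301 and a median TKO score of 78, and the 20 comparison peaks just outside had SssI scores of 302 to 307 and a median TKO score of 85.5. All 20 of the first and 18 of the second held a tract. The nearest members included one in intron 17 of Tmc5 (TKO 174, SssI 299) and one in intron 3 of C130071C03Rik (46 and 298), and the nearest comparison peaks lay in Aga (135 and 302), Tnr (134 and 302) and Gk5 (101 and 302).

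Members were narrow. Their median width was 183 bp (178 to 186), against 257 bp (255 to 259) for comparison peaks. Among peaks with TKO scores between 54 and 121, the quartiles of members, the gap was smaller, at 174.5 bp (170 to 178) against 189 bp (188 to 191). The 83 TKO peaks with no SssI partner were as narrow as members, with a median of 181 bp (170 to 206). The SssI partners of members had a median width of 219 bp, against 442 bp for those of comparison peaks. The midpoints of both peaks lay close together in members, with a median distance of 18 bp (17 to 20), much as in comparison peaks (17 bp). In 189 members (30.1%) the TKO peak was wider than the SssI peak, whereas this was so in 178 comparison peaks (1.29%). The SssI peak covered the whole TKO peak in 298 members (47.5%) and in 95.3% of comparison peaks. Widths and scores come from the same peak calls that the rule used, so these values are descriptions too.

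The strongest member, in intron 18 of Slc15a1, had a TKO score of 1843, which placed it within the top 5.93% of TKO peaks, over an SssI score of 253. Other members with high TKO scores were Rpap3 (1801 over 140), the non-coding gene Gm49289 (1383 over 279), Gpr39 (1066 over 71), Rims2 (898 over 163), 3 intergenic peaks and Acap3 (798 over 157). The intergenic members were at chr8:35458761-35459028 (878 over 150), chr8:6406084-6406380 (854 over 297) and chr14:72326679-72326945 (840 over 184). Of these 9 members, 7 held a tract, which ran from 19 bases at Gm49289 to 69 bases at Rims2, where it held a (CACG)n repeat of 35 bases and the peak 12 CpGs. Rpap3 and Gpr39 held none.

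The lowest SssI score, 14, belonged to the member over Zbtb43 (TKO 374). It was followed by an intergenic member at chr6:71176188-71176344 (46 over 17), Sik3 (700 over 24), a member in intron 5 of Psmf1, a proteasome inhibitor (320 over 28), and an intergenic one at chr8:47694747-47694916 (90 over 30). These 5 differed in sequence. Psmf1 carried a (CA)n tract of 41 bases, the chr6 member a (CA)n tract of 39 bases beside an (AG)n repeat of 47 bases, and the chr8 member no tract.

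Most members held an alternating tract, though slightly fewer than comparison peaks did. A tract of at least 12 bases was present in 576 of 628 members (91.7%, 89.3 to 93.6%) and in 96.8% of comparison peaks, a difference of -5.10 percentage points (-7.53 to -3.16). The longest tract had a median of 43 bases in members (41 to 45) and 47 in comparison peaks (46 to 47). Tracts of at least 60 bases were found in 21.8% of members and 32.5% of comparison peaks, a difference of -10.7 points (-13.8 to -7.19). In the 83 peaks with no SssI partner the share with a tract of at least 12 bases was 73.5%.

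In both groups (CA)n was the commonest repeat. In 476 members (75.8%) the longest perfect tandem repeat was (CA)n, against 82.9% of comparison peaks. No tandem repeat was found in 102 members (16.2%) and in 9.78% of comparison peaks, a difference of 6.46 points (3.74 to 9.59), and the longest repeat was (AG)n in 17 members. A (CA)n tract of at least 12 bases was present in 81.5% of members (78.3 to 84.4%) and 88.4% of comparison peaks, a difference of -6.84 points (-10.1 to -3.95). At 24 bases the difference was -2.26 points and its interval held 0 (-6.20 to 1.54), and the median length was 30 bases in members and 31 in comparison peaks. Tracts of (CACG)n, in which CA and CG alternate, were rare in both: 6 members (0.955%) and 265 comparison peaks (1.91%), with a difference of -0.959 points (-1.53 to 0.175). Tracts of (CG)n were present in 10 members (1.59%) and 1.39% of comparison peaks (difference 0.198 points, -0.557 to 1.53). Tracts of (TA)n were present in 1.43% of members and 0.498% of comparison peaks, a difference of 0.935 points (0.245 to 2.21), whose interval held 0 at TKO scores of 54 to 121 (0.427 points, -0.244 to 2.19).

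The largest contrast was in how much alternating sequence lay around the peak. In the 400 bp centred on the midpoint, members had a median of 65 bases in tracts (63 to 68), against 136 (135 to 138) in comparison peaks, and 2 tracts against 4. At least 100 bases in tracts were present in 135 members (21.5%, 18.5 to 24.9%) and in 9739 comparison peaks (70.4%), a difference of -48.9 points (-52.0 to -45.4). This measure was chosen after its values had been seen. In the 83 peaks with no SssI partner the values were lower still, with a median of 40 bases (32 to 46) and 7.23% with at least 100. Weak SssI peaks without a TKO peak were not measured in this window. Since members have low TKO scores, the comparison was repeated among peaks with TKO scores between 54 and 121. There the shares were 16.3% of 326 members and 64.6% of 3646 comparison peaks, a difference of -48.4 points (-52.3 to -43.7).

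**Figure D2:**
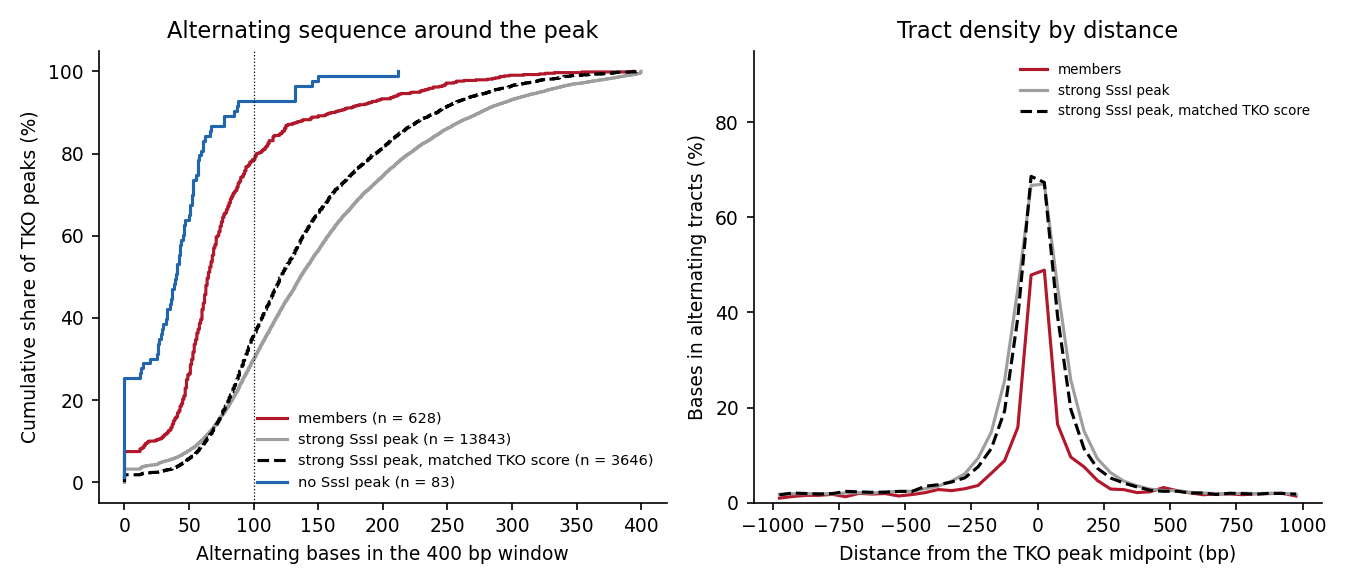
Left, cumulative share of TKO peaks (%) by the number of bases in alternating tracts within 200 bp of the midpoint, with a dotted line at 100 bases; right, mean share of bases in tracts (%) by distance from the midpoint in bp. Members (red) run to the left of comparison peaks (grey), also against those of matched TKO score (dashed), and their density falls off faster with distance.

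The tracts of members were concentrated at the middle of the peak. In the 50 bp on either side of the midpoint, 47.9% and 48.9% of members' bases were in tracts, against 66.7% and 67.0% in comparison peaks. From 50 to 100 bp away on the right the shares were 16.5% and 45.4%, and from 100 to 150 bp they were 9.61% and 25.8%. At 950 to 1000 bp the shares were 1.43% and 1.82% on the right, and 0.987% and 1.80% on the left. In members the longest tract lay a median of 18 bp (16.5 to 20.5) from the midpoint, and in comparison peaks 39.5 bp (38 to 40). At TKO scores of 54 to 121 these distances were 19 and 30 bp, and the width of a peak, which bounds this distance, differed between the groups. In the 61 peaks with a tract and no SssI partner the distance was 17.5 bp (12 to 23), much as in members. Seen the other way, 13.4% of TKO peaks with under 50 tract bases in 400 bp were members (11.6 to 15.4%), 9.75% of those with 50 to 99, 1.48% of those with 100 to 199 and 1.17% of those with 200 or more (0.866 to 1.58%). Within the TKO scores of 54 to 121 the same 4 shares were 30.8%, 14.3%, 2.11% and 2.41%.

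**Figure D3:**
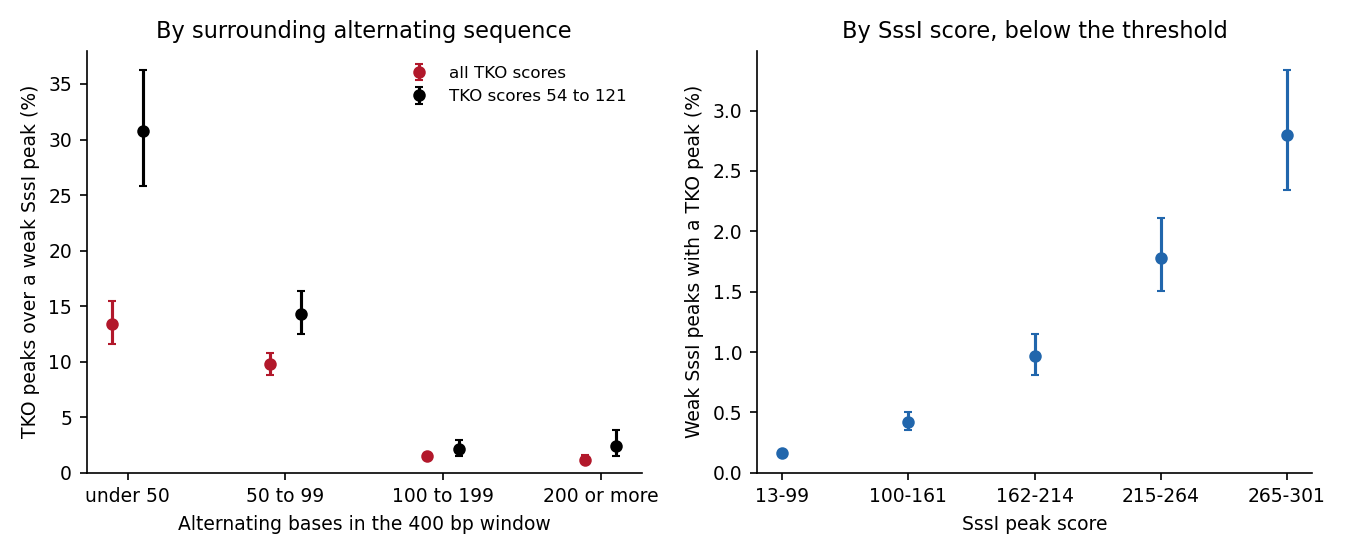
Left, share of TKO peaks that were members (%) by bases in alternating tracts in the 400 bp window, for all TKO scores (red) and for scores of 54 to 121 (black); right, share of weak SssI peaks that had a TKO peak (%) by SssI score. Points are shares and bars 95% Wilson intervals, and the share of members is lower at 100 bases or more, while that of weak SssI peaks with a TKO peak is higher at each higher score.

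Of the 52 members with no tract, 45 (86.5%, 74.7 to 93.3%) held the 5-letter word CACAC or GTGTG (each the reverse complement of the other), a word that long (CA)n tracts also contain. Windows of the same width 2000 bp to either side of the midpoint held it in 23 and 11 of the 52. Among 441 comparison peaks without a tract, 420 (95.2%) held it, as did 277 and 298 of their windows to either side. The median number of words was 3 in these members and 9 in these comparison peaks, whose median widths were 186.5 and 329 bp. These words were looked for after the sequences had been seen, and a match is a description and not a binding site. The tractless members had a median TKO score of 88.5, and those of the comparison peaks 456.

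CpG content did not separate the groups in a stable way. No CpG was present in 179 members (28.5%, 25.1 to 32.2%) and in 24.7% of comparison peaks, a difference of 3.82 points (0.351 to 7.54). Members were narrower, and in the fixed 400 bp window the difference turned to -5.07 points (10.7% against 15.7%; -7.34 to -2.35). Among TKO scores of 54 to 121 it was -2.15 points (-7.17 to 3.28). The median number of CpGs per 100 bases was 0.641 in members and 0.606 in comparison peaks, and their intervals overlapped (0.614 to 0.837 and 0.592 to 0.623). A CpG within the longest tract was found in 260 members (41.4%) and 37.5% of comparison peaks (difference 3.86 points, -0.0154 to 7.83).

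**Figure D4:**
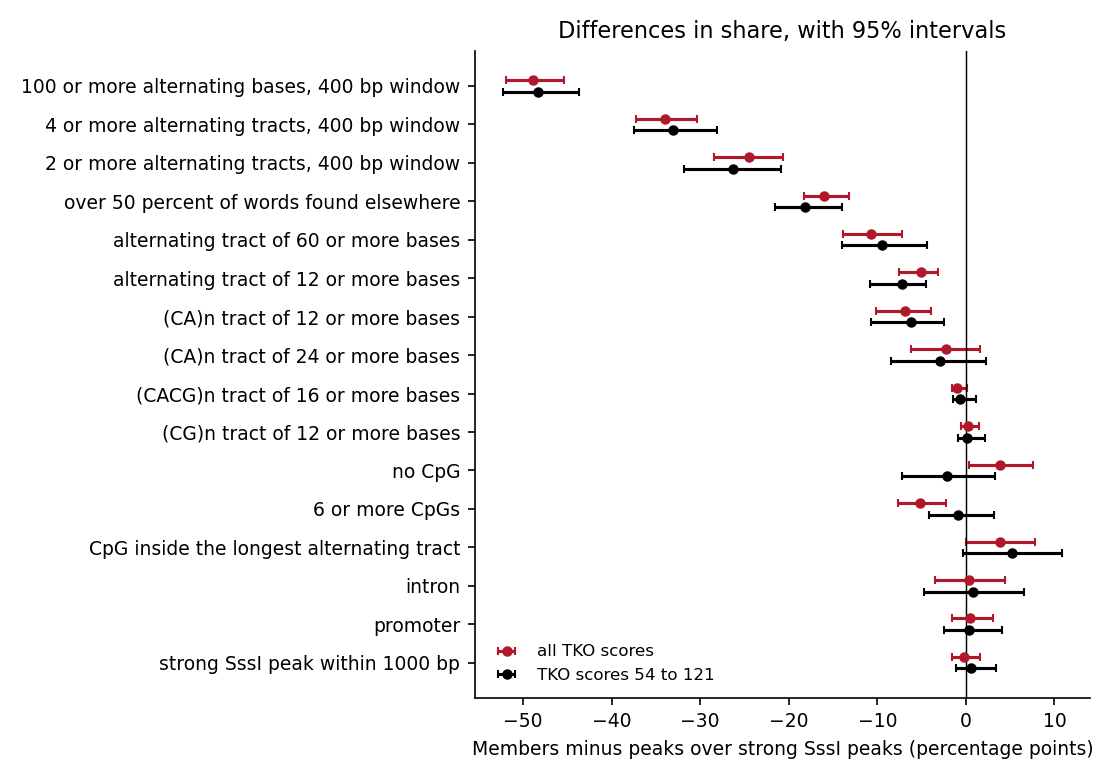
Difference in share between members and comparison peaks, in percentage points, for 16 features, over all TKO scores (red) and for TKO scores of 54 to 121 (black), with 95% Newcombe intervals. The differences in tract bases and tract number lie furthest from 0 at both settings, while those for introns, promoters and (CG)n tracts lie near 0.

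Members also had less repeated sequence than comparison peaks. A long (CA)n tract can itself count in the measures below, so they are not independent of the tract content above. In the peak, the share of soft-masked bases had a median of 58.8% in members (56.1 to 62.2%) and 78.8% (78.3 to 79.2%) in comparison peaks. The share of 32-base words that occurred more than once in the genome had a median of 19.2% (17.8 to 21.2%) and 30.4% (29.8 to 31.0%). A second copy within the same peak counted too. More than 50% of words were repeated in 67 members (10.7%) and in 26.7% of comparison peaks, a difference of -16.0 points (-18.3 to -13.2), and of -18.2 points (-21.5 to -14.0) at TKO scores of 54 to 121. Among the 83 peaks with no SssI partner, 21.7% had more than 50% of words repeated, a larger share than in members. Their median shares of repeated words (10.4%) and of soft-masked bases (46.2%) were lower than those of members. The part of repeated sequence in the scores was not tested.

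Seen from the SssI list, weak SssI peaks rarely had a TKO peak. Of 134716 autosomal SssI peaks below 302, 628 (0.466%) did. The share was 0.162% at SssI scores of 13 to 99, 0.420% at 100 to 161, 0.965% at 162 to 214, 1.78% at 215 to 264 and 2.79% at 265 to 301 (2.34 to 3.34%). The weak SssI peaks with a TKO peak held a (CA)n tract less often, and CpGs more often, than those without. A (CA)n tract of 12 bases was present in 85.2% (82.2 to 87.8%) against 94.1%, no CpG in 19.7% (16.8 to 23.0%) against 35.9%, and 6 or more CpGs in 15.1% against 5.07%. With the second group weighted to the SssI scores of the first, the shares without a TKO peak became 94.9%, 29.9% and 7.28%. A CpG within the longest tract was found in 41.4% (37.6 to 45.3%) against 26.2%, or 29.8% after weighting, while that tract had a median of 44 bases with a TKO peak and 45 without. Tracts of (CACG)n were present in 0.955% (0.439 to 2.07%) against 0.460%, or 0.717% after weighting, and those of (CG)n in 1.59% (0.867 to 2.91%) against 1.23%. The median width was 219 bp with a TKO peak and 182 bp without, and the part of width in these shares was not tested.

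Members and comparison peaks lay in introns, near starts and between genes in similar shares. By midpoint, 289 members (46.0%, 42.2 to 49.9%) lay in introns, against 45.6% of comparison peaks (difference 0.408 points, -3.54 to 4.40), 58 (9.24%) within 3000 bp upstream of an annotated start, against 8.78%, 7 in exons and 274 (43.6%) between genes, against 44.5%. A strong SssI peak that did not overlap lay within 1000 bp of 25 members (3.98%) and of 4.25% of comparison peaks (difference -0.267 points, -1.58 to 1.59). Another TKO peak lay that near to 11 members (1.75%) and to 3.59% of comparison peaks, a difference of -1.84 points (-2.67 to -0.449) that had an interval of -3.03 to 0.355 at TKO scores of 54 to 121. Across the autosomes the share of TKO peaks that were members ran from 3.01% on chromosome 10 (2.07 to 4.34%) to 6.49% on chromosome 7 (4.87 to 8.60%), with no allowance in these intervals for having picked the lowest and the highest.

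In all, 337 members had their midpoint in a gene, and these were 324 genes. On the chromosomes whose regions are named here there were 319 such members in 307 genes, 12 of which held 2. Of these 12 genes, the 5 with the highest summed TKO score, chosen after their values had been seen, were Rgs7, Rbfox1, Ankfn1, Slc35f4 and Grin2a. In Rgs7, a regulator of G-protein signalling, the members had TKO scores of 72 and 555 over SssI scores of 80 and 47. In Rbfox1, a splicing factor, they had 359 and 57 over 62 and 236, and were 2 of 14 TKO peaks in a gene of 1526172 bp. In Grin2a, an NMDA receptor subunit, they had 101 and 129 over 219 and 163. The 5 genes were 227528 to 1526172 bp long.

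The 5 members with the highest TKO scores within 1000 bp of the start of a protein-coding transcript were Mmp2 (422 over 120, 772 bp away), a gelatinase, Mapk1ip1l (395 over 289, 446 bp), Zbtb43 (374 over 14, 43 bp), Celsr1 (198 over 54, 179 bp), a cadherin of planar cell polarity, and Olfr417 (194 over 184, 979 bp), an olfactory receptor. In the transcript used to place each peak, all 5 lay in introns. These were intron 10 at Mmp2, intron 2 at Mapk1ip1l and at Zbtb43, intron 28 at Celsr1 and intron 1 at Olfr417. The starts for Mmp2, Zbtb43 and Celsr1 were those of internal transcripts, and the others need not be the main starts of their genes.

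Of the 18 genes shown in the study's genome images, 3 held a member, Tshz2 (61 over 194), Cngb3 (52 over 241) and Pdzd2 (30 over 194), beside 44 comparison peaks in the 18. In turn, each was 1 of the 18, 2 and 3 TKO peaks of its gene, and need not be at the place shown. These 3 members had TKO scores below the members' median of 71.5. Over all autosomal TKO peaks with an SssI peak, 4.34% were members, and a difference of these genes from that share was not tested.

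Members rarely touched coding sequence. There were 8 (1.27%, 0.647 to 2.49%), of which 7 are named, against 0.997% of comparison peaks (difference 0.277 points, -0.375 to 1.51). In Tsc2, the tuberous sclerosis gene (TKO 689, SssI 250), Vegfc, a lymphatic growth factor (134 and 184), Cntnap5a (124 and 124), Piwil4, a PIWI protein (63 and 265), and Ret, a receptor tyrosine kinase (54 and 91), the TKO peak reached 10 to 67 bp into a coding exon from the adjoining intron. Rpap3 and Zbtb43 differed, because the TKO peak covered the coding part of an exon whole. At Rpap3 the exon's 122 coding bases were inside a peak of 433 bp, and the SssI peak reached over 23 of them.

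At Zbtb43 the member chr2:33462164-33462455 covered all 88 coding bases of a coding exon (chr2:33462266-33462353, minus strand) and went 102 bp beyond it on either side. Only some annotated transcripts hold this exon, and in the transcript used to place the peak the member lay in intron 2. Its SssI peak, with a score of 14, covered the same 88 bases and went 31 and 24 bp beyond. The other coding exon had 1424 coding bases in its longest form and 1401 in another. A comparison peak covered it in the same way. It ran from chr2:33453597-33455206 with a TKO score of 3077, took in all 1424 coding bases (chr2:33453700-33455123) and went 103 and 83 bp beyond them, and its SssI peak (score 495) covered 1418 of them and ended within 6 bp of both edges. No TKO peak lay over the exons upstream of the coding sequence. The longest tract in the member was 12 bases. The captured protein had been made from cloned mouse Zbtb43 complementary DNA, and whether DNA of that clone was present in the capture was not tested.

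**Figure D5:**
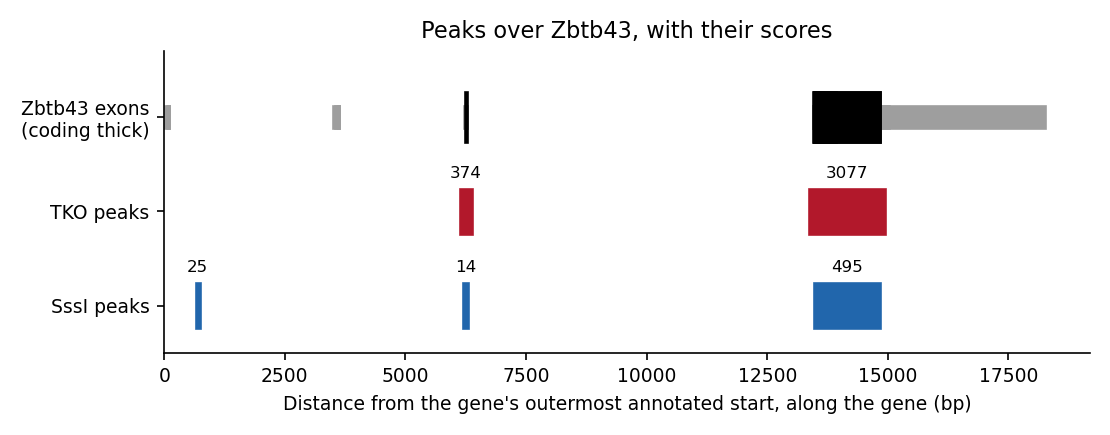
Exons of Zbtb43 (coding parts thick and black), TKO peaks (red) and SssI peaks (blue) along the gene, in bp from its outermost annotated start, with the score of each peak above it. The TKO peaks with scores of 374 and 3077 sit over the coding exons, and the exons near the start carry none.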

How the data were processed

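Sperm libraries (4 of 12) were not analysed here. The remaining 8 libraries were grouped by their labels into 4 combinations of DNA and protein. According to the submitters' processing notes and the methods, the authors aligned reads to mm10 with BWA 0.7.17, joined both libraries of a condition and ran MACS2 2.2.7.1 with the MBP libraries as background. The 2 deposited lists give each peak an interval and a score, which the authors' caller makes from the −log10 q-value and which rises with depth. No counts are in them.

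Overlaps were counted in Python 3.11.15 (pandas 2.3.3, scipy 1.17.1, statsmodels 0.14.6) and checked with bedtools 2.31.1. Tracts, tandem repeats (units of up to 6 bases, at least 3 units and 12 bases), CpGs and 32-base words were read from GRCm38, and genes from GENCODE M21. The finders were tested on simulated data. The members, lists and tests were chosen with earlier results of these data known. Named regions are the 10 members with the highest TKO score, the 5 with the lowest SssI score, 5 on either side of the threshold, 5 near start sites, those over coding sequence, genes with the most members and genes in the study's images. Some regions that meet this rule are not reported here.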

Additional observations from a re-analysis of the deposited data

How the results depend on the processing

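The 12 results were recomputed under 89 alternatives, of which 15 were chosen after seeing the data. Of these, 17 gave the same members by construction or in effect, since the strongest 20% of SssI peaks begin at a score of 302 and the SssI peak with the nearest midpoint sorted every peak alike, and they say nothing about stability. Of the other 72, 57 stayed within the interval (or within 1.5 times the count) of the reported value. At the strongest 5% (SssI score 1141), members numbered 6696, and the difference from comparison peaks became -0.386 points for a tract, 12.9 points for no CpG, -2.04 points for a (CA)n tract and -18.8 points for 100 alternating bases. At the median SssI score (108) members numbered 134 and the last difference was -65.1 points. The difference in peaks without a CpG turned to -2.15 points within the TKO scores of 54 to 121 and to -5.07 points in the 400 bp window. A (CA)n minimum of 24 bases gave -2.26 points, and strong SssI peaks within 5000 bp gave -2.05 points. For 100 alternating bases, TKO q-values under 1e-05 gave -55.6 points, a minimum of 150 bases -32.7 points and peaks with at most 50% of repeated words -43.5 points. Weighting weak SssI peaks by score moved the difference without a CpG from -16.1 to -10.2 points. The cause of these shifts was not tested, except that the thresholds change the members by construction.

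No paired analysis was possible because the peak lists used here combine the duplicates, and for the same reason no alternative leaves out a replicate. The signal of single libraries was not analysed here, and the lists do not give the depth behind a score.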
